A study of Mus musculus with 24 samples.

Results

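Guanine deaminase (Gda) and 8 other enzymes of purine salvage and breakdown, Pnp, Ada, Adk, Xdh, Hprt, Aprt, Impdh1 and Impdh2, are described here across 3 brain regions of mice. They are 9 of the 47643 gene symbols in the expression table, and all 9 were found. Gda was chosen by its measured values, because its tumour effect ran opposite ways in cerebellum and in the forebrain regions, and the other 8 were added as enzymes of the same pathway. For that reason the difference of Gda between LLC and control libraries is given as a description, with no test. RNA was sequenced from hippocampus, cerebellum and neocortex of male C57BL/6J mice aged 4 months that had been injected with LLC cells, a tumour line grown for up to 3 weeks, and of control mice of the same strain, sex and age given a mock injection. The labels write LLC without spelling it out, while the series title speaks of melanoma. Each region has 4 LLC libraries, replicates 1 to 4, and 4 control libraries, replicates 14 to 17, so that there are 6 groups and 24 libraries.

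Purine nucleotides can be built from small precursors or recovered from free bases and nucleosides, and the second route, called salvage, is known to be heavily used in brain. Adenosine is either rephosphorylated to AMP by adenosine kinase (Adk) or deaminated to inosine by adenosine deaminase (Ada). Inosine and guanosine are cut to hypoxanthine and guanine by purine nucleoside phosphorylase (Pnp). Hprt returns these bases to IMP and GMP, while Aprt returns adenine to AMP. What is not salvaged is broken down: Gda deaminates guanine to xanthine, and xanthine dehydrogenase (Xdh) oxidises hypoxanthine and xanthine to uric acid. The protein of Gda, also known as cypin, binds tubulin and has been studied in the branching of neuronal dendrites.

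The values are TPM, a unit in which each library sums to the same total and a level is already divided by transcript length. The number of reads behind a value is therefore unknown. Between 14368 and 14847 genes reached 1 TPM in a library. The regions carried the markers of their labels: Emx1, a transcription factor of the dorsal forebrain, averaged 12 TPM in control hippocampus, 0.119 TPM in control cerebellum and 19.2 TPM in control neocortex, and Gabra6, a receptor subunit of cerebellar granule cells, averaged 894 TPM in control cerebellum. LLC replicate 1 of cerebellum stood apart. Its summed level of 15 cerebellar granule and Purkinje cell genes was 5703 TPM, against 9762 to 9908 TPM in the other LLC cerebella and 9149 to 10273 TPM in control cerebella, and its brainstem and hindbrain genes summed to 172.7 TPM, against 44.8 to 52.5 TPM in the other LLC cerebella and 41.6 to 96.6 TPM in control cerebella. Blood and vessel genes differed between the groups in every region: 10 red blood cell genes summed to 3053 to 15682 TPM in LLC libraries and 1200 to 1777 TPM in control libraries, and LLC replicate 4 was the lowest LLC library in each region.

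Promoter sequences are shown for the members on which the results turn. Gda lies on chromosome 19 at 21391307 to 21473445, minus strand (GENCODE M21, mm10). RefSeq promoter windows, 250 bases before to 50 after a start on GRCm38.p6, were matched for 8 of the 9 genes. Printed are Gda, Hprt as the most abundant member, and Ada as the member with the largest LLC to control ratio after Gda in cerebellum; capitals mark GGGCGG (a GC box) and, in Ada, TTCNNNGAA (the letters bound by STAT factors), each searched on both strands.
Gda (chr19:21472612-21472911, minus strand): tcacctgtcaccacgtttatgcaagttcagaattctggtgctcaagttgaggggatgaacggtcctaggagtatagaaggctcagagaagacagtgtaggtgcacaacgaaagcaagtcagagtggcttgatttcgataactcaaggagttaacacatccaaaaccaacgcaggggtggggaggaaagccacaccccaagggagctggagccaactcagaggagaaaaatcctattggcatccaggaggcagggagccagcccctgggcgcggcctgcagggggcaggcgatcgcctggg
Hprt (chrX:52987828-52988127, plus strand): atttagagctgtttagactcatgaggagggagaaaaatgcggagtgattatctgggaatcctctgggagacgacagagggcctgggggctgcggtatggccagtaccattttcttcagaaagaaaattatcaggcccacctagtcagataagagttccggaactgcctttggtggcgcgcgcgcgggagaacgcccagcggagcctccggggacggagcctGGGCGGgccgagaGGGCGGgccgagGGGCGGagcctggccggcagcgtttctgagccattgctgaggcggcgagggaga
Ada (chr2:163750190-163750489, minus strand): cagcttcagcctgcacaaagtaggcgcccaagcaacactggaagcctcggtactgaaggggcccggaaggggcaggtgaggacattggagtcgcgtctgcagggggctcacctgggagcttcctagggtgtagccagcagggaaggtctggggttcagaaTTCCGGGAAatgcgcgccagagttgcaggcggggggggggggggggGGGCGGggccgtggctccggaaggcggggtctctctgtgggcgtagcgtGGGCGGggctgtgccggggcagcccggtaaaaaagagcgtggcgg
The Gda window held no GGGCGG, no TATAAA, no TTCNNNGAA and no AGAACA, the last being letters found in glucocorticoid receptor sites, and 9 CG dinucleotides at 55% GC. Hprt held 3 GC boxes and 22 CG dinucleotides, and Ada held 2 GC boxes, 20 CG dinucleotides and 1 STAT letter match. The windows of the remaining 5 matched genes each held 1 to 4 GC boxes. Of all 32851 promoters in the table, 35.7% held a GC box, 13.6% TATAAA, 8.3% TTCNNNGAA and 19% AGAACA, and the median was 7 CG dinucleotides. The Gda window ends at 21472911, inside the GENCODE span of the gene, which on this minus strand starts at 21473445. The bases around that GENCODE start were not searched. A match or its absence describes these letters in this window and nothing about binding.

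Among control libraries Gda was the member that varied most between regions. It measured 142, 145, 149 and 140 TPM in control hippocampi 14 to 17, 0.621, 0.394, 0.557 and 0.606 TPM in control cerebella, and 169, 179, 169 and 169 TPM in control neocortices. The hippocampal mean was 264-fold the low cerebellar mean, with no overlap, and hippocampus lay below neocortex, also with no overlap. By limma on log2(TPM + 1), hippocampus minus neocortex was -0.25 ± 0.033 (SE, Benjamini-Hochberg adjusted p = 6.76e-05). The hippocampus minus cerebellum difference was 6.55 ± 0.061 and cerebellum minus neocortex was -6.81 ± 0.056; both are given as descriptions, since with 0.545 TPM in control cerebellum Gda reached the mean of 1 TPM required for a test only through the other region. Gda ranked 1042 of 14579 genes by level in control hippocampus and 821 of 14402 in control neocortex. The ratio of its highest to its lowest region was 315, against 1.1 to 2.11 for the other 8 members.

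The other members were expressed in all 3 regions. Hprt was the most abundant, at 281 ± 10.7 TPM in control hippocampus, 248 ± 5.03 TPM in control cerebellum and 284 ± 8.95 TPM in control neocortex (mean ± SD, n = 4 each), and Ada was the least abundant, at 0.596 ± 0.135, 0.948 ± 0.264 and 0.45 ± 0.156 TPM in the same order. Adk, known as the main remover of adenosine in adult brain, was highest in cerebellum, at 103 ± 1.52 TPM, against 74.9 ± 2.86 TPM in hippocampus and 80.8 ± 1.81 TPM in neocortex. Aprt ran the other way, at 61.3 ± 4.48 TPM in hippocampus, 36.6 ± 4.09 TPM in cerebellum and 47 ± 0.977 TPM in neocortex, and its 3 regions did not overlap. Impdh1 was highest in neocortex and Impdh2 lowest there: Impdh1 measured 33.3 ± 2.24, 35.6 ± 1.34 and 43.6 ± 1.26 TPM in hippocampus, cerebellum and neocortex, and Impdh2 measured 46.9 ± 1.6, 44.6 ± 0.796 and 38.9 ± 2.58 TPM. These 2 genes encode IMP dehydrogenase, which commits IMP to guanine nucleotides.

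Most genes differed between regions, and the counts of members are to be read against that share. The fits counted here were without pairing. Cerebellum minus neocortex called 7 of 8 tested members among 85.5% of all tested genes, hippocampus minus neocortex 5 of 8 among 61.8%, and hippocampus minus cerebellum 5 of 8 among 81.9%. The counts include Gda, which entered both cerebellar comparisons through the other region. Its calls there are not taken as support. Ada stayed below the mean of 1 TPM required for a test in all 3. With no filter on low genes, Ada was 0.42 ± 0.12 for cerebellum minus neocortex (adjusted p = 0.00951), 0.14 ± 0.091 for hippocampus minus neocortex (adjusted p = 0.263) and -0.28 ± 0.11 for hippocampus minus cerebellum (adjusted p = 0.0496), with groups overlapping in each. TPM also shifts with the composition of a region: the median gene differed by 0.31 on the log2 scale for cerebellum minus neocortex, by 0.082 for hippocampus minus neocortex and by -0.23 for hippocampus minus cerebellum. Relative to that shift, set to 0 by median-ratio scaling, Gda kept its direction for cerebellum minus neocortex, which is given as a description. The Hprt, Aprt and Impdh1 calls of that comparison kept their direction and passed again. The other 3 calls did not: for cerebellum minus neocortex Pnp was 0.13 (adjusted p = 0.0434) as deposited and -0.19 (adjusted p = 0.00776) after scaling, Impdh2 was 0.2 (adjusted p = 0.00218) and -0.13 (adjusted p = 0.0235), and Adk was 0.34 (adjusted p = 5.83e-07) and 0.013 (adjusted p = 0.695). For hippocampus minus cerebellum, Pnp was -0.029 (adjusted p = 0.667) and 0.2 (adjusted p = 0.0116), Impdh1 was -0.095 (adjusted p = 0.125) and 0.14 (adjusted p = 0.0189), and Impdh2 was 0.069 (adjusted p = 0.125) and 0.31 (adjusted p = 8.31e-06). For hippocampus minus neocortex Hprt was -0.014 (adjusted p = 0.752) and -0.11 (adjusted p = 0.0459).

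On the log2(TPM + 1) scale Xdh had the widest spread of the members among control libraries of each region, with SDs of 0.25 in hippocampus, 0.32 in cerebellum and 0.45 in neocortex. Control cerebella 14 to 17 measured 6.1, 7.12, 9.2 and 10.7 TPM and control neocortices 14 to 17 measured 3.67, 4.82, 6.64 and 8.52 TPM. In both regions replicate 14 was lowest and replicate 17 highest, and the groups overlapped. Cerebellum minus neocortex was 0.45 ± 0.22 (SE, adjusted p = 0.0709) by limma without pairing and had adjusted p = 0.000206 with the replicate number as a block. Hippocampal controls measured 3.46, 3.89, 5.26 and 5.19 TPM, all below control cerebella, and hippocampus minus cerebellum was -0.76 ± 0.16 (adjusted p = 0.00127).

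**Figure D1:**
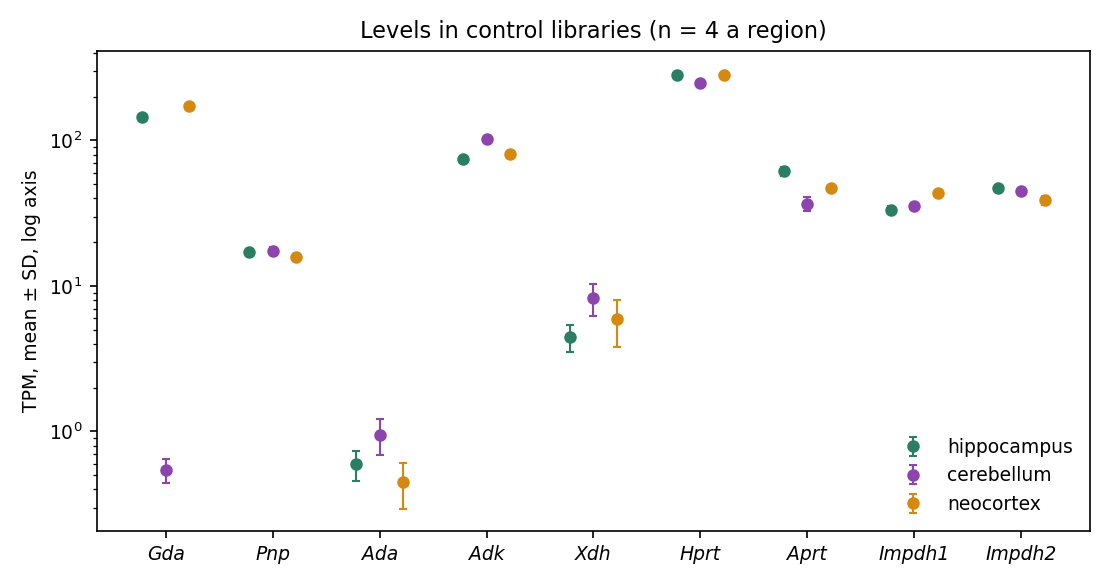
Mean level ± SD of the 9 genes in the 4 control libraries of hippocampus, cerebellum and neocortex, in TPM on a log axis. Gda is the one gene whose cerebellar point, at 0.545 TPM, lies far below its hippocampal and neocortical points, at 144 and 172 TPM, while the other 8 genes stay within 2.11-fold across regions.

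Gda was 3.39-fold higher in LLC than in control cerebellum and lower in LLC than in control hippocampus and neocortex. In cerebellum it measured 2.04, 2.05, 1.66 and 1.62 TPM in LLC replicates 1 to 4, against 0.621, 0.394, 0.557 and 0.606 TPM in control replicates 14 to 17. All 4 LLC cerebella were above all 4 control cerebella. In hippocampus it measured 116, 137, 136 and 121 TPM in LLC mice, against 142, 145, 149 and 140 TPM in control mice. All 4 LLC hippocampi were below all controls, replicates 1 and 4 by the most. In neocortex it measured 153.4, 150.1, 150.4 and 168.1 TPM in LLC mice, against 169.4, 179, 168.9 and 168.8 TPM in control mice. All 4 LLC neocortices were below all controls, but replicate 4 lay within 1 TPM of the lowest control.

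Expressed as group means, Gda was 1.84 ± 0.237 TPM in LLC cerebellum and 0.545 ± 0.104 TPM in control cerebellum, 127 ± 10.7 TPM in LLC hippocampus and 144 ± 4.2 TPM in control hippocampus, and 155.5 ± 8.5 TPM in LLC neocortex and 171.5 ± 4.99 TPM in control neocortex (mean ± SD, n = 4 each). The means of LLC libraries differed from those of controls by 239% in cerebellum, -11.6% in hippocampus and -9.33% in neocortex. On the log2(TPM + 1) scale, which understates changes of low genes, LLC minus control was 0.88 ± 0.11 in cerebellum, -0.18 ± 0.059 in hippocampus and -0.14 ± 0.043 in neocortex (SE). The cerebellar value with a pseudocount of 0.1 was 1.6. In cerebellum Gda passed the filter of a mean of 1 TPM only through the LLC libraries. Its highest cerebellar value, 2.05 TPM in LLC replicate 2, was far below its lowest hippocampal value, 116 TPM in LLC replicate 1.

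Marker sums of cell types are set beside the cerebellar Gda values, with no association computed. The LLC cerebella had 383 to 600 TPM of 12 endothelial genes, against 325 to 347 TPM in control cerebella. The 13 neutrophil genes summed to 55.1 to 165 TPM in LLC and 7.85 to 21.2 TPM in control cerebella, and the 10 red blood cell genes to 4340 to 15682 TPM in LLC and 1298 to 1711 TPM in control cerebella. The endothelial, neutrophil and red blood cell sums were also higher in LLC hippocampus and neocortex. The neutrophil genes summed to 34.6 to 131 TPM in LLC and 7.71 to 17.2 TPM in control hippocampi. In neocortex they summed to 53.2 to 218 TPM in LLC and 9.94 to 15.6 TPM in control libraries. The part of these marker genes in the Gda difference was not tested. Genes of forebrain excitatory neurons, the cells of regions where Gda was abundant, summed to 504 to 638 TPM in LLC and 569 to 604 TPM in control cerebella, with 7 of the 15 under 1 TPM in both groups. Among single genes of that list, Cux2 was at 20.5 to 22.3 TPM in LLC and 18.4 to 19.3 TPM in control cerebella, Neurod6 at 8.72 to 12.4 TPM in LLC and 11 to 12.6 TPM in control cerebella, and Lamp5 at 2.02 to 78.2 TPM in LLC and 1.35 to 30.4 TPM in control cerebella. The 8 genes of hippocampal pyramidal and dentate neurons summed to 137 to 215 TPM in LLC and 186 to 226 TPM in control cerebella. The median log2 difference of the 4 tested in cerebellum was -0.2. Prox1 averaged 24.4 TPM in LLC and 31.6 TPM in control cerebella. Spink8, near the floor, was at 0.282 to 0.581 TPM in LLC and 0 to 0.0982 TPM in control cerebella, with no overlap. Spink8 was also higher on average in LLC than in control neocortex (7.54 against 2.99 TPM) and hippocampus (82.5 against 70.6 TPM). The part of these genes' cells in the Gda difference was not tested. Without LLC replicate 1, the library low in cerebellar genes, the Gda difference was 0.85, and leaving out each of the 8 cerebellar libraries in turn gave 0.83 to 0.92. In bulk tissue, fewer cells of a type and less RNA per cell cannot be told apart.

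**Figure D2:**
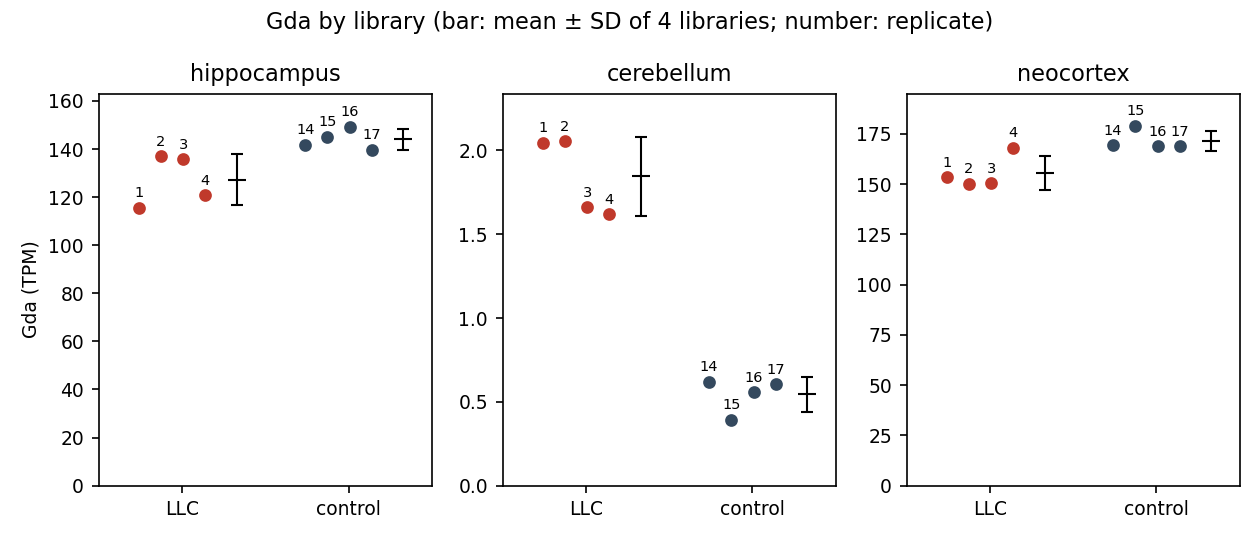
Gda in TPM in each library, LLC left and control right in each region, with the replicate number above each point and the mean ± SD of 4 libraries beside it; each region has its own axis from 0. The 4 LLC cerebella lie at 1.62 to 2.05 TPM, above control cerebella at 0.394 to 0.621 TPM, and in hippocampus and neocortex every LLC point is below every control point.

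Aprt, a salvage transferase, was the only one of the tested members called in an LLC comparison; Gda was given no test there. In neocortex it measured 41.1, 42, 42.2 and 44.7 TPM in LLC replicates 1 to 4, against 46.9, 45.8, 47.1 and 48.2 TPM in control replicates 14 to 17. All 4 LLC neocortices were below all controls, with replicate 4 again nearest. Aprt fell to 42.5 ± 1.53 TPM in LLC neocortex, against 47 ± 0.977 TPM in control neocortex (mean ± SD, n = 4 each), a log2 difference of -0.14 ± 0.038 (limma, adjusted p = 0.0469). The call is close to its threshold: adjusted p ran from 0.0039 to 0.347 over 14 alternatives, and without any single one of the 7 libraries other than LLC replicate 4 it was 0.0888 to 0.142. In hippocampus Aprt measured 52.1, 56.9, 48.1 and 61.8 TPM in LLC mice and 64.9, 64.6, 55.4 and 60.3 TPM in control mice. These groups overlapped, and the difference of -0.16 ± 0.08 had adjusted p = 0.262. In cerebellum it was 38 ± 4.38 TPM in LLC and 36.6 ± 4.09 TPM in control libraries (log2 difference 0.051 ± 0.1, adjusted p = 0.782).

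Hprt, whose loss causes Lesch-Nyhan disease in humans, differed by at most 6.04% between group means in any region. LLC hippocampi ranged from 237 to 312 TPM and control hippocampi from 269 to 293 TPM. LLC cerebella ranged from 238 to 278 TPM and control cerebella from 243 to 255 TPM. LLC neocortices ranged from 266 to 282 TPM and control neocortices from 273 to 292 TPM. The LLC libraries were the more spread in hippocampus and cerebellum, and the groups overlapped in all 3 regions, with log2 differences of -0.032 ± 0.075, 0.082 ± 0.06 and -0.061 ± 0.035 (adjusted p = 0.843, 0.421 and 0.276).

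Adk was slightly lower in LLC than in control libraries in every region, and none of these differences passed. LLC cerebella measured 99.8, 98.3, 98.3 and 94.1 TPM, against 104, 102, 104 and 101 TPM in control cerebella. The cerebellar groups did not overlap, yet the log2 difference of -0.073 ± 0.049 had adjusted p = 0.381. LLC neocortices measured 75, 74, 70.3 and 81.1 TPM, against 83, 80.7, 78.6 and 80.9 TPM in control neocortices. LLC replicate 4 alone lay among the controls, and the difference of -0.11 ± 0.045 had adjusted p = 0.146. In hippocampus Adk was 71.2 ± 3.4 TPM in LLC and 74.9 ± 2.86 TPM in control libraries (-0.072 ± 0.048, adjusted p = 0.41).

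Pnp, which feeds guanine to Gda and hypoxanthine to Xdh, leaned the same ways as Gda without passing the test, directions that Hprt and Aprt shared. In hippocampus it measured 13.3, 16.7, 11.5 and 18 TPM in LLC mice, against 17, 17, 15.9 and 18.1 TPM in control mice. In cerebellum it measured 20.4, 19.1, 17.1 and 19 TPM in LLC mice, against 19, 16.8, 17.3 and 16.4 TPM in control mice. In neocortex it measured 14.4, 13.4, 11.9 and 15.4 TPM in LLC mice, against 15.4, 16.2, 16.4 and 15.2 TPM in control mice. LLC replicate 3 was the lowest LLC library in each region, and the groups overlapped in each. The log2 differences were -0.2 ± 0.12 in hippocampus (adjusted p = 0.371), 0.12 ± 0.077 in cerebellum (adjusted p = 0.38) and -0.19 ± 0.071 in neocortex (adjusted p = 0.111). Without LLC replicate 4 the neocortical difference was -0.24 with adjusted p = 0.0217. Pnp overlaps the gene Pnp2 on the same strand of chromosome 14, so reads may be split between them; Pnp2 stayed at 0.47 to 2.94 TPM.

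Ada was at a low level throughout and higher in most LLC libraries. In hippocampus it measured 0.949, 1.24, 1.5 and 0.511 TPM in LLC mice, against 0.41, 0.604, 0.732 and 0.636 TPM in control mice. In cerebellum it measured 2.77, 1.24, 1.83 and 1.06 TPM in LLC mice, against 1.17, 0.564, 1.03 and 1.03 TPM in control mice. In neocortex it measured 1.35, 0.999, 1.3 and 0.363 TPM in LLC mice, against 0.487, 0.603, 0.232 and 0.479 TPM in control mice. In each region LLC replicates 1 to 3 exceeded all 4 controls and LLC replicate 4 lay among them. LLC replicate 4 was also the LLC library with the lowest red blood cell sum in each region, and in neocortex that sum was 3835 TPM, against 12001 to 15420 TPM in LLC replicates 1 to 3; its part in the Ada values was not tested. The cerebellar log2 difference was 0.45 ± 0.2 (adjusted p = 0.191), and 0.28 without LLC replicate 1. In cerebellum Ada passed the filter through its LLC libraries, since the control mean was 0.948 TPM. In hippocampus and neocortex it did not reach a mean of 1 TPM over the 8 libraries; with no filter on low genes its differences were 0.34 ± 0.15 (adjusted p = 0.285) and 0.44 ± 0.17 (adjusted p = 0.168).

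Xdh, the last enzyme before uric acid, was higher on average in LLC libraries of all 3 regions, without passing the test in any. LLC hippocampi measured 5.51, 6, 5.6 and 4.66 TPM, against 3.46, 3.89, 5.26 and 5.19 TPM in control hippocampi. LLC cerebella measured 11, 10.1, 9.04 and 6.44 TPM, against 6.1, 7.12, 9.2 and 10.7 TPM in control cerebella. LLC neocortices measured 7.78, 7.11, 7.6 and 5.37 TPM, against 3.67, 4.82, 6.64 and 8.52 TPM in control neocortices. LLC replicate 4 was the lowest LLC library in each region, and all groups overlapped. The log2 differences were 0.25 ± 0.13 (adjusted p = 0.273), 0.13 ± 0.19 (adjusted p = 0.687) and 0.24 ± 0.2 (adjusted p = 0.433) in hippocampus, cerebellum and neocortex. Leaving out 1 library moved them to between 0.16 and 0.32, 0.015 and 0.28, and 0.073 and 0.42; the lowest value came without control replicate 14 in each region.

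The IMP dehydrogenases did not pass in any region. Impdh2 measured 54.4, 49.1, 48.9 and 44.9 TPM in LLC cerebella, against 45.5, 44.4, 43.7 and 45 TPM in control cerebella. LLC replicates 1 to 3 were above all controls and replicate 4 among them, and the difference of 0.14 ± 0.067 had adjusted p = 0.237. Its hippocampal and neocortical differences were 0.066 ± 0.048 (adjusted p = 0.456) and 0.035 ± 0.05 (adjusted p = 0.682). Impdh1 ranged from 31.3 to 40 TPM in LLC cerebella and from 33.6 to 36.4 TPM in control cerebella, so that the LLC libraries spread to both sides of the controls. Its differences were -0.13 ± 0.076 in hippocampus (adjusted p = 0.353), -0.012 ± 0.083 in cerebellum (adjusted p = 0.942) and -0.091 ± 0.061 in neocortex (adjusted p = 0.342).

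**Figure D3:**
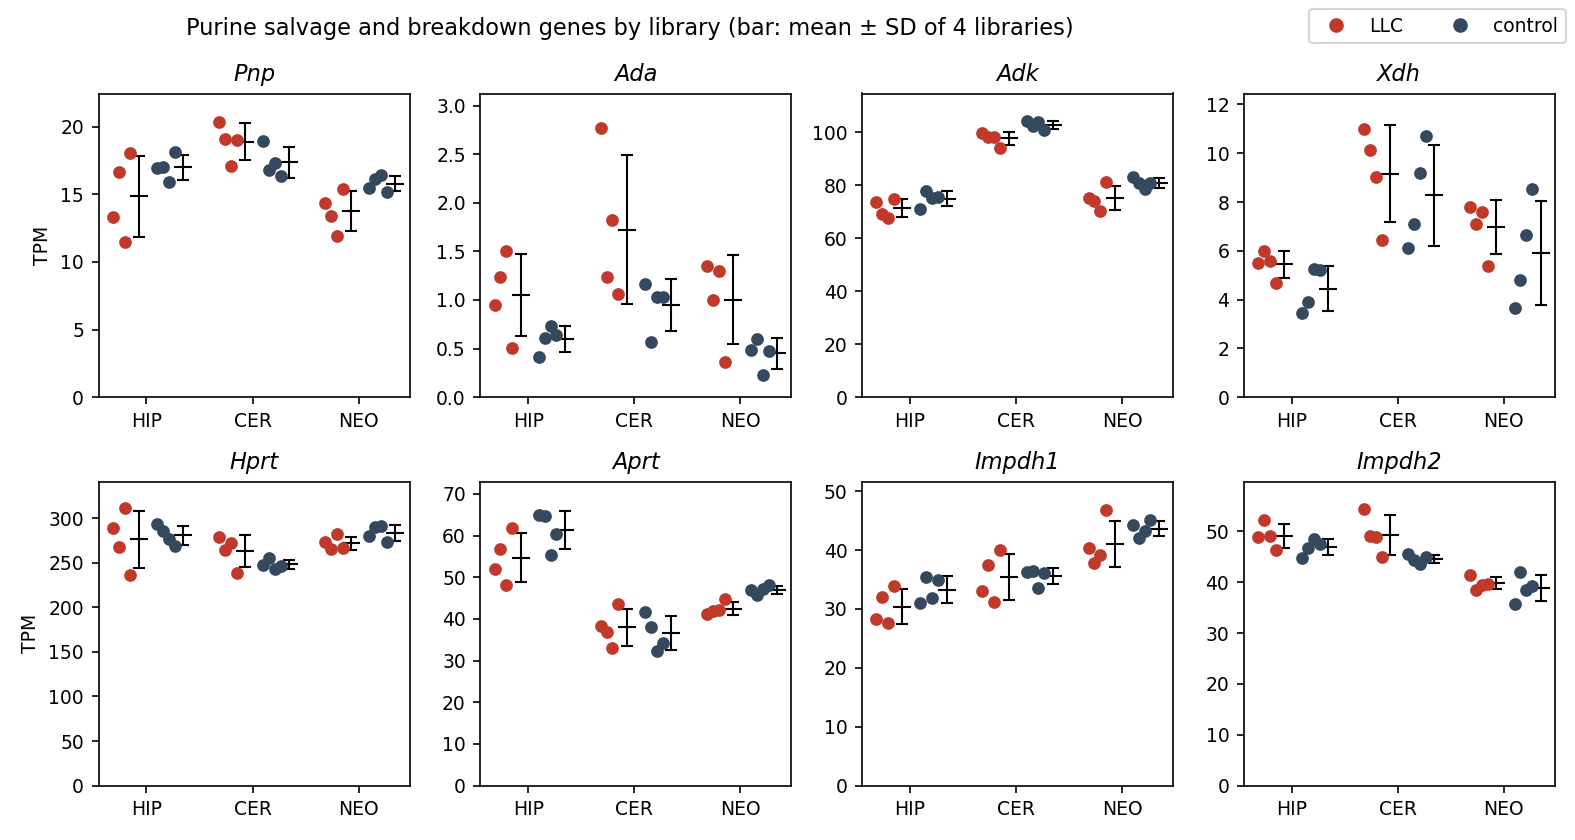
TPM of the 8 other genes in each library of hippocampus (HIP), cerebellum (CER) and neocortex (NEO), LLC left of control, with the mean ± SD of 4 libraries beside the points. Aprt in neocortex, at 41.1 to 44.7 TPM in LLC and 45.8 to 48.2 TPM in control libraries, is the one called difference; Ada shows 3 LLC points above all controls in each region and the Xdh controls run from 3.67 to 8.52 TPM in neocortex.

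Counted over the tested members other than Gda, the LLC comparison called 0 of 7 in hippocampus, 0 of 8 in cerebellum and 1 of 7 in neocortex. Among all tested genes it called 3.61% in hippocampus (529 of 14650), 2.5% in cerebellum (366 of 14624) and 8.54% in neocortex (1237 of 14485). At an unadjusted p under 0.05 there were 3259, 3563 and 4320 genes. Pnp, Adk and Aprt in neocortex were members among them. Ada in cerebellum was too, but it entered the test only through the LLC libraries and is not counted as support.

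The opposite direction of Gda between regions is the property by which it was picked, so its size is given with no test. The LLC effect in cerebellum minus that in neocortex was 1.02 ± 0.091 (SE), hippocampus minus cerebellum was -1.06 ± 0.091, and hippocampus minus neocortex was -0.039 ± 0.091. With a pseudocount of 0.1 the first 2 values were 1.74 and -1.78. No other tested member passed the test of a difference between regions. Among all genes that test called 0.646% for cerebellum minus neocortex (89 of 13783), 0.0936% for hippocampus minus cerebellum (13 of 13884) and 0% for hippocampus minus neocortex (0 of 14152, with 271 at an unadjusted p under 0.05). Pnp came nearest, at 0.31 ± 0.14 for cerebellum minus neocortex (adjusted p = 0.351) and -0.31 ± 0.14 for hippocampus minus cerebellum (adjusted p = 0.358). The 3 contrasts share libraries pairwise and are not independent.

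**Figure D4:**
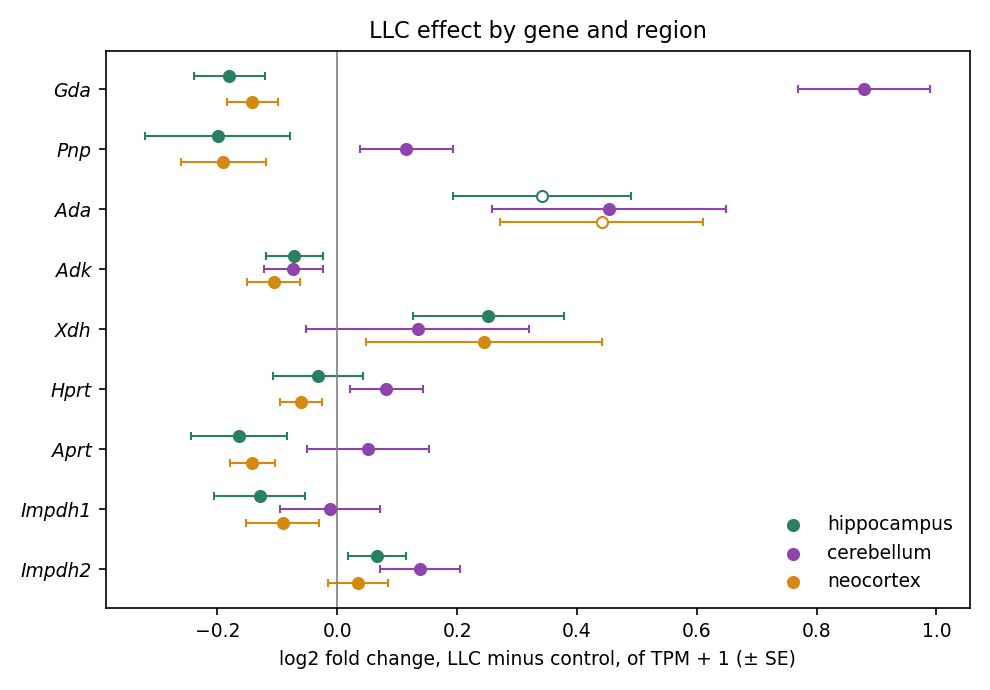
LLC minus control log2 fold change of TPM + 1, ± SE, for the 9 genes in hippocampus, cerebellum and neocortex; open points mark Ada where it was below the filter and comes from the fit with none. The cerebellar Gda point at 0.88 stands far right of its hippocampal and neocortical points at -0.18 and -0.14, and the other genes lie between -0.2 and 0.45.

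Ratios within a library do not depend on its scaling. Each transcript of Gda was matched by 144 ± 15.2 of Hprt in LLC cerebella and 472 ± 118 in control cerebella, by 2.18 ± 0.266 in LLC and 1.95 ± 0.0914 in control hippocampi, and by 1.75 ± 0.121 in LLC and 1.65 ± 0.0507 in control neocortices (SD, n = 4 each). The cerebellar ratio ran from 129 to 164 in LLC and from 399 to 647 in control libraries, with no overlap. The hippocampal groups overlapped, at 1.95 to 2.49 in LLC and 1.85 to 2.07 in control libraries. So did the neocortical groups, at 1.59 to 1.87 in LLC and 1.62 to 1.73 in control libraries, where LLC replicate 4 was below all controls. The Adk to Ada ratio, the kinase over the deaminase of adenosine, was 81.1 ± 45.4 in LLC and 131 ± 30 in control hippocampi, 64.5 ± 24 in LLC and 117 ± 43.1 in control cerebella, and 102 ± 81.6 in LLC and 203 ± 92 in control neocortices. It was lower on average in LLC libraries of each region, and the groups overlapped in hippocampus and neocortex. In cerebellum it ran from 36.1 to 88.5 in LLC and from 89.4 to 182 in control libraries. The Impdh2 to Impdh1 ratio was 1.63 ± 0.184 in LLC and 1.41 ± 0.0911 in control hippocampi, 1.41 ± 0.238 in LLC and 1.26 ± 0.0335 in control cerebella, and 0.975 ± 0.0849 in LLC and 0.892 ± 0.0791 in control neocortices, with overlap in every region.

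Over 8 lists of the wider purine pathway, 6 of 81 tested genes passed in LLC against control hippocampus (7.41%, against 3.61% of all tested genes), 1 of 82 in cerebellum (1.22%, against 2.5%) and 7 of 81 in neocortex (8.64%, against 8.54%). The 9 tested genes of de novo synthesis included none that passed in any region, with median log2 differences of -0.048 in hippocampus, -0.12 in cerebellum and -0.0021 in neocortex, against 0.0079, -0.04 and 0.015 over all tested genes. Nor did any nucleoside transporter (4 tested in hippocampus, 5 in cerebellum, 4 in neocortex) or any of 3 tested adenosine receptors pass. Of 19 tested genes of nucleotide interconversion, 2 fell in hippocampus, where 3.61% of all tested genes passed, and none passed elsewhere (medians 0.0031, 0.011 and 0.0095): Nme1, a nucleoside diphosphate kinase, by 0.24 on the log2 scale (adjusted p = 0.0305), and Ak4, a mitochondrial adenylate kinase, by 0.24 (adjusted p = 0.0487). Of 8 tested genes of urate and xanthine handling, Slc2a9, a urate transporter, rose in hippocampus, to 3.63 ± 0.374 TPM in LLC, against 2.25 ± 0.308 TPM in control libraries (0.51 ± 0.1, adjusted p = 0.0322). Of 12 tested salvage enzymes and relatives, Lacc1, a purine nucleoside enzyme of macrophages, rose in neocortex (0.24 ± 0.065, adjusted p = 0.0489).

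Among 16 tested nucleotidases, 1 passed in hippocampus, 1 in cerebellum and 3 in neocortex, where 3.61%, 2.5% and 8.54% of all tested genes passed. Entpd1 rose in all 3 regions. It encodes CD39, a cell surface enzyme of vessels and microglia that cuts ATP and ADP to AMP. It measured 8.65 ± 0.805 TPM in LLC hippocampus and 6.64 ± 0.325 TPM in control hippocampus (0.33 ± 0.079, adjusted p = 0.0496), 7.13 ± 0.88 TPM in LLC cerebellum and 4.93 ± 0.341 TPM in control cerebellum (0.45 ± 0.098, adjusted p = 0.0469), and 11.3 ± 0.675 TPM in LLC neocortex and 8.37 ± 0.368 TPM in control neocortex (0.4 ± 0.057, adjusted p = 0.00668). The groups did not overlap in any region. Its call held under all 14 alternatives in neocortex, 7 in cerebellum and 6 in hippocampus; it was lost in cerebellum without any 1 control library or LLC replicate 2 or 3, and in hippocampus without any 1 control library or LLC replicate 1 or 2. The 12 endothelial genes summed to 310 to 397 TPM in LLC and 207 to 242 TPM in control hippocampi and to 387 to 564 TPM in LLC and 270 to 303 TPM in control neocortices, while 12 microglial genes summed to 454 to 702 TPM in LLC and 582 to 616 TPM in control hippocampi; their part in the Entpd1 difference was not tested. In neocortex 2 other nucleotidases fell: Alpl, an alkaline phosphatase, by 0.64 (adjusted p = 0.0325, groups overlapping) and Enpp1, which cuts ATP to AMP and pyrophosphate, by 0.45 (adjusted p = 0.0345). The median of the 16 was -0.032 in hippocampus, -0.026 in cerebellum and -0.033 in neocortex.

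Of 10 genes for proteins that bind the Gda protein or belong to the dendrite scaffold, 2 fell in hippocampus, none passed in cerebellum and 3 fell in neocortex, against the same 3.61%, 2.5% and 8.54% of all tested genes. Tubb3, a neuronal beta-tubulin, was 213 ± 44.7 TPM in LLC hippocampus and 314 ± 27.2 TPM in control hippocampus (-0.58 ± 0.13, adjusted p = 0.0454), 417 ± 58.8 TPM in LLC cerebellum and 358 ± 26 TPM in control cerebellum (0.21 ± 0.096, adjusted p = 0.211), and 350 ± 55.2 TPM in LLC neocortex and 476 ± 11 TPM in control neocortex (-0.46 ± 0.087, adjusted p = 0.0185). Stmn2, which binds tubulin in growing neurites, fell by 0.29 in hippocampus (adjusted p = 0.0296) and by 0.27 in neocortex (adjusted p = 0.0349), and Tubb5, another beta-tubulin, fell by 0.37 in neocortex (adjusted p = 0.0224). Dlg4, the postsynaptic scaffold protein PSD-95, did not pass in any region, at -0.018, -0.064 and -0.1 (adjusted p = 0.877, 0.667 and 0.213). The medians of the 10 were -0.023, -0.079 and -0.05. Except for Entpd1 in neocortex, each call of these pathway lists was lost without at least 5 of the 8 libraries of its region taken one at a time, and none was lost without LLC replicate 4.

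**Figure D5:**
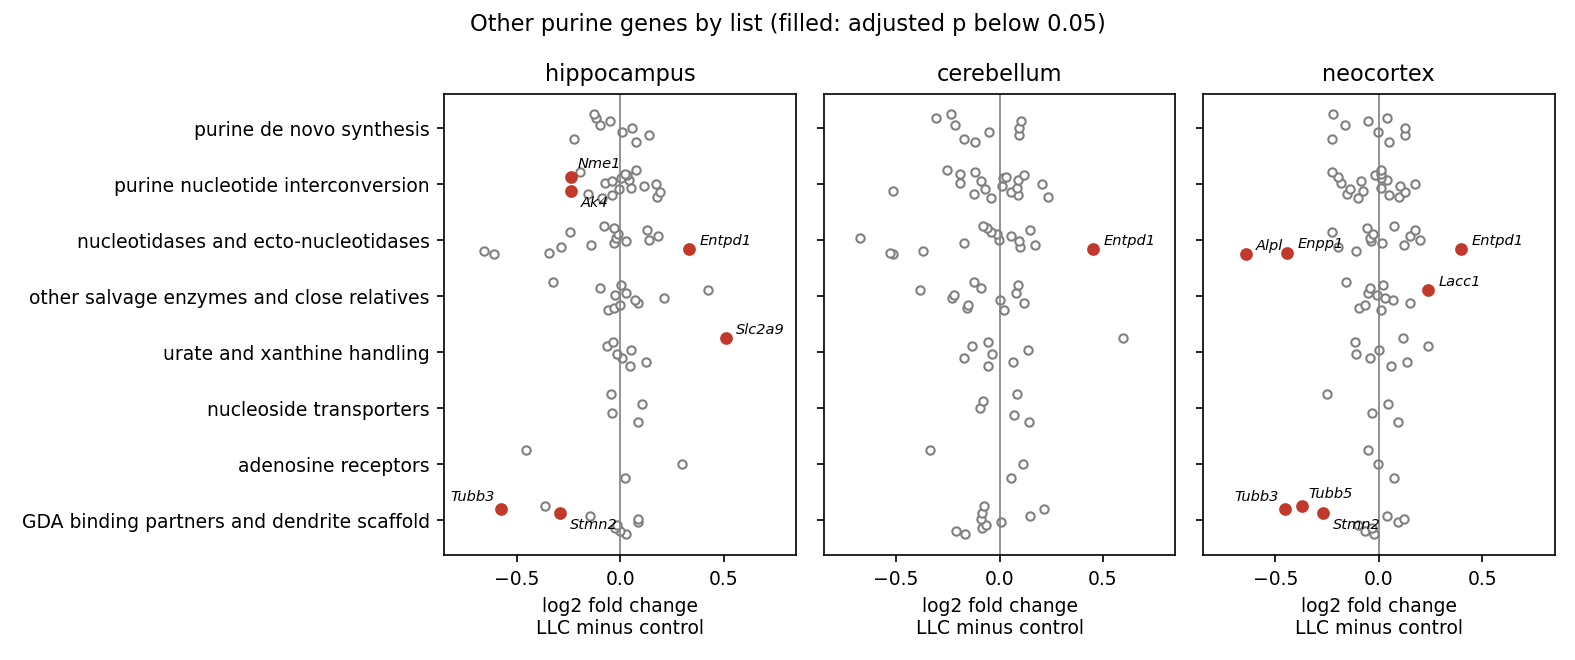
LLC minus control log2 fold changes of the tested genes of 8 purine lists in hippocampus, cerebellum and neocortex; filled points passed an adjusted p of 0.05 and are named, open points did not. Entpd1 is filled in all 3 panels, at 0.33, 0.45 and 0.4, and Tubb3 and Stmn2 are filled left of 0 in hippocampus and neocortex.

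Genes most like Gda were sought by Pearson's r over the 24 libraries among 12622 genes with a mean of at least 1 TPM in each region; r is a description, since libraries of a group share their treatment and those of a region their tissue. Compared by level, the highest were Ctxn1 (0.995), Cnih3 (0.995), Pde2a (0.994), Nrgn (0.994) and Hpcal4 (0.993), all of them lower in cerebellum than in the other regions. Nrgn, a postsynaptic protein of forebrain neurons, averaged 1601 TPM in LLC hippocampus and 1648 TPM in control hippocampus, 6.12 TPM in LLC cerebellum and 5.78 TPM in control cerebellum, and 1815 TPM in LLC neocortex and 2124 TPM in control neocortex. Its cerebellar groups overlapped, at 3.72 to 11.7 TPM in LLC and 4.94 to 6.65 TPM in control libraries, where those of Gda did not. As a difference from the control mean of the region, Gda was 0.764 to 0.986 in LLC cerebella and -0.314 to 0.0722 in all other libraries. An r with that difference follows mainly the shift in LLC cerebella, on which Gda was picked, and is not support. By the difference, the highest were Sh2b2 (0.887), Tcte2 (0.879), Npy (0.858), Crip2 (0.852) and Borcs6 (0.842). Npy, a neuropeptide, averaged 128 TPM in LLC hippocampus and 165 TPM in control hippocampus, 56.1 TPM in LLC cerebellum and 34.3 TPM in control cerebellum, and 248 TPM in LLC neocortex and 254 TPM in control neocortex. The most opposite were Nebl (-0.905), Lmo7 (-0.895), Ccdc88a (-0.891), Cpsf6 (-0.891) and Chst15 (-0.884). Each was lower on average in LLC than in control cerebellum, which such an r largely implies. Among the 7 other members that could be compared, Impdh2 (0.558) and Pnp (0.539) were the nearest to Gda by the difference and Adk (-0.926) the most opposite by level.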

How the data were processed

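Per the labels' protocols, stranded TruSeq libraries of messenger RNA were sequenced on a NovaSeq. The authors deposited 1 table of TPM values for 24 libraries. Per the submitters' processing notes, the build was mm10. Aligner, counter and annotation were not given in the sources used here. A TPM is relative to transcript length and to the library's total, so 1 abundant transcript can depress the rest, and depth is lost.

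Groups came from the titles. The labels call the libraries biological replicates, and p-values measure the spread between these libraries. No 2 libraries were identical. Each comparison was fitted with limma 3.58.1 (lmFit, eBayes with a trend) under R 4.3.3. Values entered as log2(TPM + 1), for genes averaging 1 TPM or more in the libraries fitted; tests were two-sided, with Benjamini-Hochberg adjustment over all genes tested at 0.05. For differences between regions, 1 model held all 24 libraries, restricted to genes that passed the filter in both regions. The code was tested on simulated data. The members and gene lists were chosen with earlier results of these data known, and no p-value was adjusted over a list alone. Named genes are the 9 members, list members past the threshold, at most 4 a list, and the 5 genes most and least like Gda; Dlg4 and the marker genes were named after their values were seen. Descriptions were computed in Python 3.11.15 with pandas 2.3.3.

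Whether replicate numbers pair libraries was checked by correlating deviations from group means. Control cerebella and neocortices of the same title number correlated at 0.114 to 0.263, all above 0.1. For that comparison a fit with the replicate number as a block is given for Xdh beside the fit without pairing. The counts and all other values of that comparison are from the fit without pairing, unless an alternative is named. Of all same-number pairs across regions, 16 of 24 were above 0.1 (median 0.16), against 6 of 72 pairs of different numbers (median -0.046). Of LLC and control libraries with the same description number 5 of 12 were above 0.1, against 11 of 36 with different numbers. Since not every pair was above 0.1, the other comparisons were also reported without pairing, with a replicate block as an alternative only. A shared effect of the number is therefore left in their spread. With the title-number block, calls over all genes went from 89 to 205 for the LLC effect in cerebellum minus that in neocortex. For hippocampus minus cerebellum they went from 13 to 40. The labels do not say whether a number stands for the same animal in every region. A remark on a replicate number in each region may concern a single animal, so the regions are not independent observations there. Alternatives were a pseudocount of 0.1, no filter, median-ratio scaling, a replicate block, library weights, 1 fit of all 24 libraries and leaving out each library.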

Additional observations from a re-analysis of the deposited data

Results flagged for a closer look

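Of 54 groups of 4 libraries looked at (9 genes in 6 groups), 2 held a library far from the other 3, where chance alone gives about 1 in 20. Gda in control neocortex replicate 15 was 179 TPM, against 168.8 to 169.4 TPM in the other 3 controls. Impdh1 in control cerebellum replicate 16 was 33.6 TPM, against 36.1 to 36.4 TPM in the other 3 controls.

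Gda also stood out between regions, because all 4 LLC cerebella were above the cerebellar control mean while all 4 LLC hippocampi and all 4 LLC neocortices were below the control means of their regions. The difference of the LLC effect was 1.02 for cerebellum minus neocortex and -1.06 for hippocampus minus cerebellum on the log2(TPM + 1) scale. These differences were not tested, since Gda was picked on them.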

How the results depend on the processing

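Of 68 single-gene values recomputed under the alternatives, 10 changed direction under at least 1 of them, and 2 of those 10 had passed the test, Pnp and Impdh2 in control cerebellum minus neocortex. The 1 member called in LLC neocortex became 0 with no filter, with the description number as a replicate block (Aprt adjusted p = 0.0863) and with all 24 libraries in 1 fit, 3 with library weights (Pnp, Adk and Aprt) and 0 to 4 when single libraries were left out, 4 without LLC replicate 4 (Pnp, Adk, Aprt and Impdh1). In cerebellum library weights gave 1 (Impdh2, adjusted p = 0.0172) in place of 0. Control hippocampus minus cerebellum called 8 members in place of 5 with median-ratio scaling, and both counts include Gda. No member count in hippocampus or in a difference between regions changed under any of these alternatives. Calls over all genes ranged from 57 to 1667 in hippocampus, 6 to 5769 in cerebellum and 187 to 4337 in neocortex, from 22 to 303, 4 to 161 and 0 to 2 for the differences of cerebellum minus neocortex, hippocampus minus cerebellum and hippocampus minus neocortex. The cause of these changes was not tested.

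Gda with a pseudocount of 0.1 was 1.6 in cerebellum, and its differences were 1.74 and -1.78. Impdh1 in cerebellum, -0.012, turned to 0.0297 with median-ratio scaling and 0.066 with library weights, and ran from -0.071 to 0.044 when libraries were left out. Other values near 0 changed sign when a library was left out: Impdh2 in neocortex (-0.0038 to 0.072), Aprt in cerebellum (-0.016 to 0.11), Hprt in hippocampus (-0.092 to 0.0396), the Gda difference of hippocampus minus neocortex (-0.075 to 0.00597), and in controls Hprt for hippocampus minus neocortex (-0.035 to 0.0072) and Pnp for hippocampus minus cerebellum (-0.058 to 0.012). Median-ratio scaling of the control regions turned Pnp to -0.19 and Impdh2 to -0.13 for cerebellum minus neocortex, and Pnp to 0.20 and Impdh1 to 0.14 for hippocampus minus cerebellum. The title-number replicate block called Xdh in control cerebellum minus neocortex (adjusted p = 0.000206) and in control hippocampus minus neocortex (adjusted p = 0.0222, against 0.21 without it). In controls, the Adk call for hippocampus minus neocortex was lost without neocortex replicate 14 (adjusted p = 0.0629), and the Pnp call for cerebellum minus neocortex without cerebellum replicate 14 or 16 or neocortex replicate 14, 15 or 17 (adjusted p = 0.0545 to 0.11). Read depth is not known from TPM, so the precision of Ada and of Gda in cerebellum, both near 1 TPM, cannot be stated.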
